A study of Homo sapiens with 5 samples.

Results

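ATF4 is the transcription factor through which cells answer shortage of amino acids, stress of the endoplasmic reticulum and oxidative stress. In the integrated stress response, kinases phosphorylate the initiation factor eIF2, general translation falls, and the ATF4 message is translated more. ATF4 then pairs with C/EBP family proteins at composite DNA sites, named C/EBP-ATF response elements (CAREs), and turns on genes of amino acid synthesis, amino acid import and stress signalling, among them the cystine importer that feeds glutathione synthesis. Peaks were examined here at 10 genes of this response, ATF4 itself and 9 genes known as its targets or as effectors of the stress it answers (DDIT3, CHAC1, ASNS, TRIB3, SESN2, DDIT4, PSAT1, PHGDH and VLDLR), out of 19689 protein-coding genes. The genes were chosen by name, and every peak over each annotated gene and 10 kb to each side was taken.

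The cells were SNU638, an established human gastric cancer line, grown without a compared treatment or genetic change, and nothing in the labels says that the stress response was induced. Chromatin was profiled with CUT&Tag, in which a transposase tethered to an antibody cuts adapters into the DNA around its target, with 1 library each for ACTL6A (an actin-like subunit of chromatin remodelling complexes), BRG1 (the ATPase of the SWI/SNF remodelling complex) and NRF2 (the transcription factor of the antioxidant response), and 2 for IgG. The lists held 23917 peaks for ACTL6A, 48793 for BRG1, 9045 for NRF2, 11 for IgG 1 and 1746 for IgG 2. With no replicate of any antibody, no difference between lists can be set against replicate spread, and every comparison below is a description without a test. The lists hold no total of reads and no read total from another source is used here, so the depth behind a peak is given as the number of fragments at its summit, solved from the enrichment and p-value that the caller wrote, with an exact Poisson 95% interval that covers counting error only. The fewest fragments of any peak were 3 for ACTL6A, 3 for BRG1 and 8 for NRF2, so a gene without a peak is a gene where none was detectable at this depth.

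Sequences are shown for the sites on which the results turn, from GRCh38 and 5′ to 3′. The CARE was searched as TGATGNAA on both strands. In each run of 30 bases the match is in capitals, read in the direction of the gene's transcription, so a match on the opposite strand appears as TTNCATCA. They lie at chr12:57520802-57520831 (DDIT3, minus strand), chr15:40953251-40953280 (CHAC1, plus), chr7:97872458-97872487 (ASNS, minus), chr20:380881-380910 and chr20:382139-382168 (TRIB3, plus), chr1:28259211-28259240 (SESN2, plus), chr9:78297381-78297410 (PSAT1, plus) and chr1:119712786-119712815 (PHGDH, plus).
DDIT3: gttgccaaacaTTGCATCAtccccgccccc
CHAC1: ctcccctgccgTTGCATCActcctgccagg
ASNS: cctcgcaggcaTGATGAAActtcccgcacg
TRIB3, exon 1: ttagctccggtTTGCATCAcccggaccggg
TRIB3, intron 1: gcgcttgcgctTGATGTAAcccgccctcat
SESN2: gtgaagtccctTTTCATCAcgcaaccctaa
PSAT1: ccctaggcgctTTGCATCAgcgtgcacagc
PHGDH: cgcccctcgtcTGATGCAAgactgctccgt

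Over the 10 genes and their flanks lay 49 peaks, 12 of ACTL6A, 30 of BRG1 and 7 of NRF2, and 0 of either IgG library. Start-site peaks were those no farther than 1 kb from where any protein-coding transcript of the gene begins. BRG1 had such a peak at 9 of the 10 genes, all but VLDLR, against 63.5% of all protein-coding genes. ACTL6A had 1 at 6 genes (DDIT3, ASNS, TRIB3, SESN2, DDIT4 and PSAT1), against 38.5% of all genes. For NRF2 the count was 5 (ATF4, DDIT3, ASNS, TRIB3 and DDIT4), against 28.1%, and for IgG it was 0, against 0.152%. These shares were above those of all genes for each antibody, but the 10 genes were not drawn at random from all genes. Over the whole window, ACTL6A reached 8 of the 10 genes, BRG1 9 and NRF2 6, against 66.9%, 82.7% and 41.1% of all genes. NRF2 counted at PHGDH only through a peak with its summit inside the neighbouring gene ZNF697. That peak had 11 fragments (5.49 to 19.7) against 2.79 expected and stood at rank 8925 of 9045.

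ACTL6A and BRG1 peaks shared at least 1 bp at a start site at 6 of the 10 genes, the same 6 that had an ACTL6A peak there, against 34.7% of all genes. DDIT3 and TRIB3 counted through annotated starts other than that of the MANE Select transcript. With the MANE Select start alone 4 genes were left (ASNS, SESN2, DDIT4 and PSAT1). An NRF2 peak overlapped both an ACTL6A and a BRG1 peak at 4 genes (DDIT3, ASNS, TRIB3 and DDIT4), against 20.4% of all genes. When an overlap had to cover at least 50% of both peaks, the count of 3-way overlaps was 1, TRIB3. CHAC1 and PHGDH had BRG1 alone at their start sites, 2 of 10 genes against 21.1% of all genes. VLDLR was the 1 gene with none of the 3, against 34.4%.

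**Figure D1:**
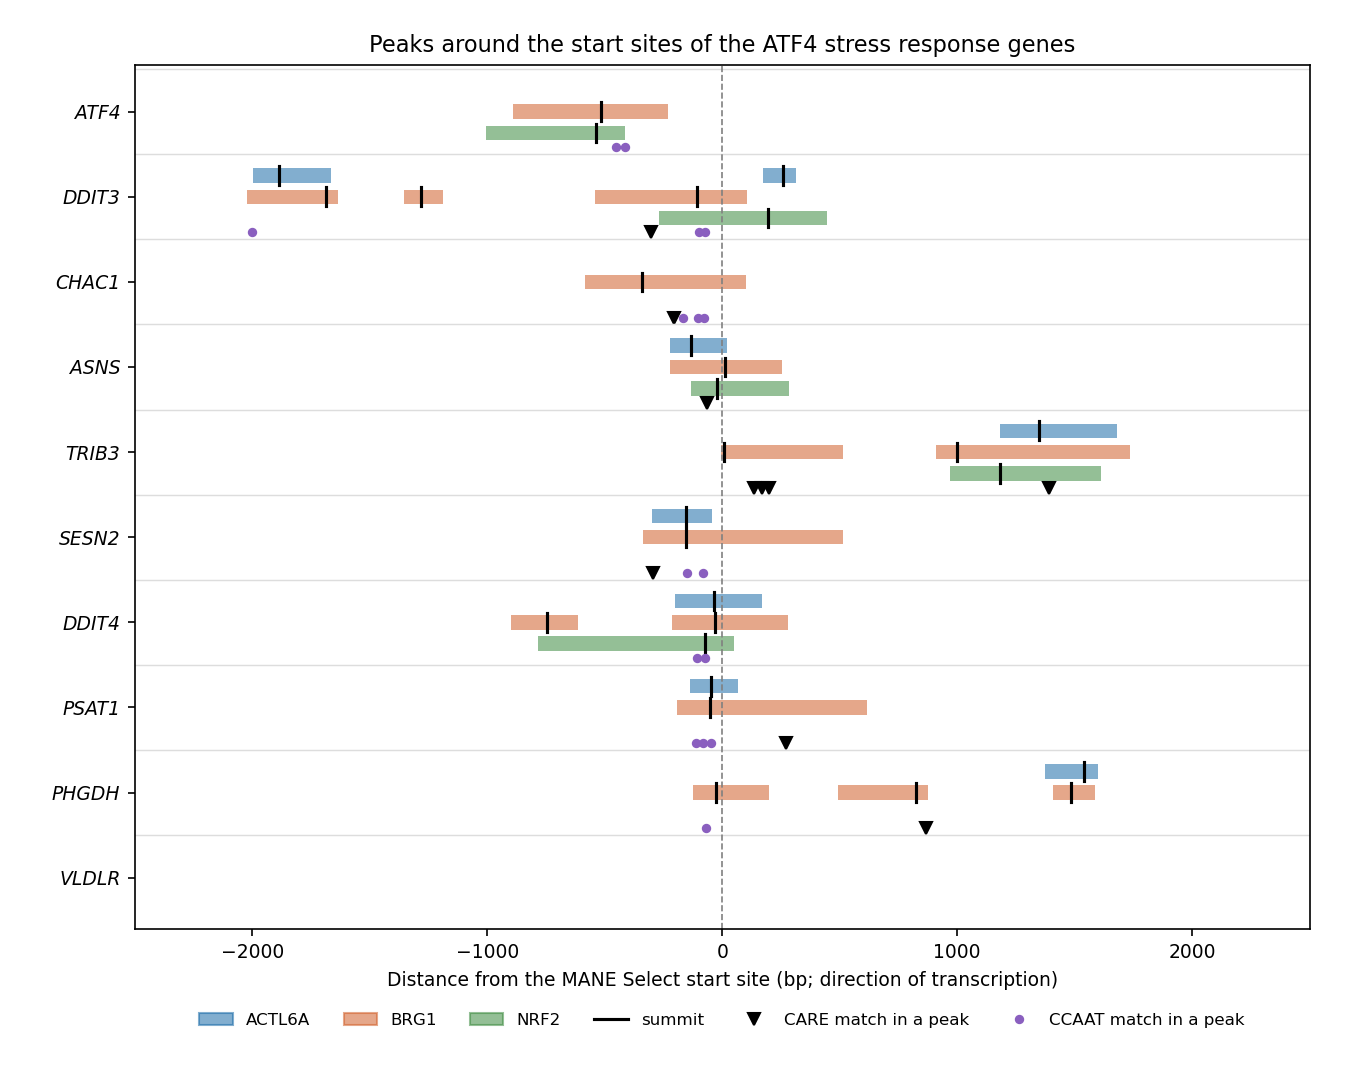
Peaks of ACTL6A, BRG1 and NRF2 (bars) with their summits (black ticks) by distance in bp from the start of the MANE Select transcript, 1 row per gene, with CARE and CCAAT matches that lie in a peak. At SESN2, DDIT4 and PSAT1 the ACTL6A and BRG1 summits stand within 2 bp of each other, at CHAC1 only BRG1 is seen, and the row of VLDLR is empty. Peaks farther than the axis are not drawn.

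ATF4, the regulator itself, carried BRG1 and NRF2 at its promoter and no ACTL6A. The BRG1 peak (chr22:39519673-39520332) had 39 fragments at its summit (27.7 to 53.3) where 3.41 were expected, and stood at rank 4801 of its list. The NRF2 peak (chr22:39519557-39520148) had 25 fragments (16.2 to 36.9) against 6.57 expected. The summits lay 18 bp apart, at -518 and -536 from the start of the MANE Select transcript and 349 and 331 bp inside the longest annotated transcript. A further NRF2 and BRG1 overlap, with summits 44 bp apart, lay past the 3′ end of ATF4 within the neighbouring gene RPS19BP1, where NRF2 had 31 fragments (21.1 to 44) and BRG1 had 26 (17 to 38.1). The nearest ACTL6A peak was 12207 bp from the ATF4 start. The stretch under both promoter summits (chr22:39519878-39520177, plus strand) is shown with the AP-1-like heptamer TGANTCA and the CCAAT box, the pentamer bound by NF-Y, in capitals. The TGATTCA match lay 89 bp from the BRG1 summit and 107 bp from that of NRF2. Of all BRG1 summits at start sites, 4.8% had such a heptamer within 100 bp.
ATF4: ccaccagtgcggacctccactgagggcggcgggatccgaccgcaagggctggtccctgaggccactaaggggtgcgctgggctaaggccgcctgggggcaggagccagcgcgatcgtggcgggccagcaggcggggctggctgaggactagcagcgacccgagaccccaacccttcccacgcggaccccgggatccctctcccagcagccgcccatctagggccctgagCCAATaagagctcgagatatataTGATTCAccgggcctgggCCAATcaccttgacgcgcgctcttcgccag

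DDIT3 encodes CHOP, the C/EBP-related factor that ties prolonged stress to cell death, and TRIB3 a pseudokinase that restrains ATF4 and AKT signalling. At DDIT3 the strongest BRG1 peak (chr12:57520410-57521057) had 37 fragments (26.1 to 51.0) against 4.79 expected, with its summit at -107 from the start. It reached from the first exon over the CARE shown above, 196 bp from the summit, and lay within 1 kb of the start of MBD6 on the opposite strand as well. An NRF2 peak with 25 fragments (16.2 to 36.9) had its summit in intron 1, 194 bp from the MANE Select start, and a small ACTL6A peak with 10 fragments (4.80 to 18.4) at 259 bp. The NRF2 peak overlapped the ACTL6A and the BRG1 peak, but these 2 did not touch each other. ACTL6A and BRG1 met farther out, at -1888 and -1688, where ACTL6A had its higher peak (15 fragments, 8.40 to 24.7), and there the peaks ended 311 and 288 bp short of a start of MBD6, a methyl-CpG-binding domain gene. Peaks at these shared promoters cannot be assigned to either gene. The NRF2 and ACTL6A peaks in intron 1 also lay within 1 kb of starts of MIR616 and ENSG00000285133. The strongest BRG1 peak lay within 1 kb of a start of ENSG00000285133 too. A weak BRG1 peak downstream of DDIT3, with 7 fragments (2.81 to 14.4), covered a start of MARS1.

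At TRIB3 the 3 antibodies met in intron 1 and not at the MANE Select start. There ACTL6A had 8 fragments (3.45 to 15.8), BRG1 31 (21.1 to 44) and NRF2 19 (11.4 to 29.7), with summits at 1349, 998 and 1184 bp. The intronic match TGATGTAA lay inside all 3 peaks, 45 bp from the ACTL6A summit, 210 bp from that of NRF2 and 396 bp from that of BRG1. A weaker BRG1 peak with 18 fragments (10.7 to 28.4) covered the MANE Select start, with its summit at 9 bp. It held 3 copies of TGATGCAA in the 5′ UTR of exon 1, 33 bp apart and each inside the same 30 bases, of which 1 copy is shown above. Upstream of the gene, in NRSN2, the ACTL6A peak (9 fragments, 4.12 to 17.1) and the BRG1 peak (14 fragments, 7.65 to 23.5) had their summits at the same base, -26052. In all, TRIB3 had 8 of the 30 BRG1 peaks, the highest of them by q-value at the promoter of RBCK1 downstream.

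SESN2 and DDIT4 encode brakes on the growth kinase mTORC1, sestrin 2 as a leucine sensor and DDIT4 (REDD1) as a stress-induced inhibitor. At both, ACTL6A and BRG1 coincided almost to the base. DDIT4 had the highest start-site -log10 q of the 10 genes in each of the 3 lists. BRG1 had 66 fragments (51.0 to 84.0) against 3.69 expected, rank 839 of 48793. ACTL6A had 17 (9.90 to 27.2) against 0.913 expected, and NRF2 had 26 (17 to 38.1) against 3.84. The 3 summits stood at -31, -33 and -75, and those of ACTL6A and BRG1 were 2 bp apart. A further BRG1 peak at -747, with 23 fragments (14.6 to 34.5), ended 392 bp from the start of a lncRNA (ENSG00000289506) on the opposite strand. That start also lay inside the NRF2 peak and within 1 kb of the main BRG1 and ACTL6A peaks. Peaks here therefore cannot be assigned to DDIT4 alone. At SESN2 the ACTL6A summit (11 fragments, 5.49 to 19.7, against 0.569 expected) and the BRG1 summit (30 fragments, 20.2 to 42.8, against 2.31) fell on the same base, -155. All 259 bases of the ACTL6A peak lay inside the BRG1 peak, and no NRF2 peak was found within 110042 bp. Its TGATGAAA match stood near the upstream edge of both peaks, 137 bp from the shared summit.

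The part of these ACTL6A peaks that lies upstream of the gene is printed with that of PSAT1, the third gene whose summits coincided, because CCAAT boxes stand at or near the summits. The runs are chr1:28259218-28259476 (SESN2), chr10:72273721-72273918 (DDIT4) and chr9:78296987-78297124 (PSAT1), all on the plus strand, with CARE and CCAAT matches (CCAAT or ATTGG) in capitals.
SESN2: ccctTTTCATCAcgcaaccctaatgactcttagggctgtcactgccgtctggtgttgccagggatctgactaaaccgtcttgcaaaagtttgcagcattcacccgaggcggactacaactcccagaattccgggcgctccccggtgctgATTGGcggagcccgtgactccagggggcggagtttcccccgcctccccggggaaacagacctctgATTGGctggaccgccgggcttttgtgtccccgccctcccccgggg
DDIT4: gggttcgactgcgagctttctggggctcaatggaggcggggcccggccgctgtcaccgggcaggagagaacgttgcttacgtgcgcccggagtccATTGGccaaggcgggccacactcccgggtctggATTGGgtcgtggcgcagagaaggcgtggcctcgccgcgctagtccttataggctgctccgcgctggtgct
PSAT1: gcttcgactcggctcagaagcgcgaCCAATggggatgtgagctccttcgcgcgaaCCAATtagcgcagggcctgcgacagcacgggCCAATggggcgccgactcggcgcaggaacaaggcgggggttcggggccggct

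The CCAAT box was searched after these sequences had been read, so what follows is a description. The runs held 2 matches at SESN2, 2 at DDIT4 and 3 at PSAT1, and the ATF4 run held 2. The nearest match lay 6 bp from the shared summit of SESN2, and at PSAT1 0 bp from the ACTL6A and 2 bp from the BRG1 summit. At DDIT4 it lay 2 bp from the NRF2 summit but 40 bp from that of ACTL6A and 42 bp from that of BRG1. At DDIT3 the nearest match was 9 bp from the BRG1 summit and 268 bp from that of NRF2, and at ATF4 65 and 83 bp. Within 100 bp of the highest BRG1 summit at the start sites, 5 of the 9 genes held a CCAAT match (ATF4, DDIT3, SESN2, DDIT4 and PSAT1), against 25.8% of the 12512 genes with such a peak. PHGDH was counted at its peak shared with ZNF697, and a match lay 41 bp from the weaker BRG1 summit at its MANE Select start. In RefSeq promoters on GRCh38 (250 bp before to 50 after the start in the table, 300 bp, all 10 genes matched), 6 of the 10 genes held at least 1 match, against 42.5% of 15345 genes. At least 2 matches were found at 5 genes (DDIT3, CHAC1, SESN2, DDIT4 and PSAT1) against 15%, and at least 3 at 2 genes (CHAC1 and PSAT1) against 4.85%. CARE matches were in the promoters of CHAC1 and ASNS, 2 of 10 genes against 3.64%, and AP-1 matches (TGANTCA) in that of DDIT3, 1 of 10 against 8.09%. At TRIB3 the RefSeq windows began at chr20:381045 or later, downstream of the MANE Select start at chr20:380760. They left out the 3 TGATGCAA copies in exon 1, so the CARE count does not cover that stretch. The RefSeq windows also left out the CARE matches shown above for DDIT3, SESN2, PSAT1 and PHGDH. The core of the NRF2 element, TGACNNNGC on both strands, lay in 1 of the 7 NRF2 peaks, at DDIT4, 275 bp from the summit, against 22.7% of all 9045 NRF2 peaks. Within 100 bp of the summit it lay in 0 of the 7, against 9.66% of all NRF2 peaks, and in RefSeq promoters it was found at TRIB3 and VLDLR, 2 of 10 genes against 18%.

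ASNS, PSAT1 and PHGDH encode enzymes that make asparagine and serine. ASNS stood next to DDIT4 in strength of BRG1, with 50 fragments (37.1 to 65.9) against 1.69 expected and rank 974. ACTL6A had 10 fragments there (4.80 to 18.4) against 0.569 expected, and NRF2 had 19 (11.4 to 29.7) against 2.60. Summits lay at 12 bp for BRG1, -23 for NRF2 and -132 for ACTL6A. ASNS was the 1 gene of the 10 whose CARE match, at -64, was inside the start-site peaks of all 3 antibodies and within 100 bp of each summit, at 77, 42 and 67 bp in the order just given. At PSAT1 the BRG1 peak had 36 fragments (25.2 to 49.8) against 1.62 expected and the ACTL6A peak 13 (6.92 to 22.2) against 0.688, with summits at -52 and -50. The BRG1 peak ran on into intron 1 over a TGATGCAA match, 323 bp from its summit. No NRF2 peak was found within 266025 bp of the PSAT1 start.

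PHGDH, which makes the first step from glycolysis to serine, had 6 BRG1 peaks but weak ones. The peak at its MANE Select start had 11 fragments (5.49 to 19.7) against 1.15 expected, and that in intron 1, whose summit at 823 bp was 44 bp from the TGATGCAA match shown above, had 9 (4.12 to 17.1). Its highest BRG1 peak, with 20 fragments (12.2 to 30.9), lay at the farthest annotated transcript start, at -63531, which is also within 1 kb of the start of ZNF697 and cannot be told apart from it. ACTL6A and BRG1 overlapped at PHGDH farther into intron 1, with summits 52 bp apart at 1538 and 1486 bp and 5 and 9 fragments, outside the 1 kb that counts as a start site.

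CHAC1, which degrades glutathione inside the cell, showed BRG1 and nothing else over its whole window. The peak (chr15:40952885-40953570) had 35 fragments (24.4 to 48.7) against 2.13 expected, rank 4065, with its summit at -341 and the TGATGCAA match at -206. The nearest ACTL6A peak was 15256 bp away and the nearest NRF2 peak 58342 bp. VLDLR, a lipoprotein receptor, was the weakest of the 10. Its sole peak was of ACTL6A in intron 3 (chr9:2641163-2641374), with 4 fragments (1.09 to 10.2) against 0.21 expected, and no BRG1 peak was found within 95808 bp of the MANE Select start. That interval held a TGAGTCA match 14 bp from the summit and a TGATGAAA match 46 bp from it. Of all ACTL6A summits away from start sites, 9.63% had a TGANTCA match and 2.11% a TGATGNAA match within 100 bp.

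Within the BRG1 list the counting intervals of most pairs of genes overlapped. That of DDIT4 (51.0 to 84.0) lay above those of TRIB3, SESN2, PSAT1, CHAC1, PHGDH and, by less than 1 fragment, DDIT3, and overlapped those of ATF4 and ASNS. The interval of ASNS (37.1 to 65.9) lay above that of PHGDH (12.2 to 30.9), and all other pairs overlapped. In ACTL6A (8 to 17 fragments) and NRF2 (19 to 26) all intervals overlapped. ATF4 and CHAC1 lacked ACTL6A although their BRG1 counts, 39 and 35, were within the range of the 6 genes that had it, 30 to 66. Among all 4242 genes whose highest start-site BRG1 peak had at least 30 fragments, a limit taken from these genes, 80.8% (Wilson 95% interval 79.6% to 81.9%) had an ACTL6A peak at a start site and 70% had an NRF2 peak. Of the 8 genes here with as many, 6 had ACTL6A and 5 had NRF2.

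Ranked among the 12512 genes with a start-site BRG1 peak, the 9 genes had a median place in the top 28.9%. Their places ran from 5.27% for DDIT4 and 6.25% for ASNS to 53.9% for PHGDH. The place of PHGDH is that of its peak shared with ZNF697, not of the weaker peak at its MANE Select start. Among the 7578 genes with an ACTL6A peak the median of the 6 was 42.5%, from 20.8% for DDIT4 to 71.0% for TRIB3. For NRF2, the 5 genes had a median of 64.9% of 5541 genes, and only DDIT4 (23.1%) and ASNS (36.4%) were in the upper part. ATF4, DDIT3 and TRIB3 (64.9%, 66.6% and 67.0%) were thus called at low NRF2 values, and none of the 3 kept an NRF2 peak at a start site at a -log10 q of at least 5.

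A CARE match lay somewhere in the highest start-site BRG1 peak of 6 of the 9 genes (DDIT3, CHAC1, ASNS, TRIB3, SESN2 and PSAT1), against 1.77% of the 12512 genes with such a peak. With any start-site BRG1 peak counted, PHGDH joined and 7 of 9 genes held a match, against 2.25%. The highest peaks of these genes were wider than usual, with a median of 686 bp against 510 bp. Among genes with a highest peak of at least 479 bp, the narrowest of the 9, the share for the highest peak was 2.18%. The count over any peak was not adjusted for the number or width of peaks per gene. The 9 genes had 16 start-site BRG1 peaks, and all 12512 genes had 15165, a peak shared by neighbours being counted once. Most matches were off the summit, however. Within 100 bp of the highest BRG1 summit a match was found at 1 of the 9 genes, ASNS, against 0.639% of the 12512 genes. Over every start-site BRG1 peak, 2 of the 16 at these genes held a match within 100 bp of the summit, at ASNS and PHGDH, against 0.686% of all BRG1 peaks at start sites. The genes are known ATF4 targets, several of them through such elements, so the matches are not independent evidence, and a match does not show that ATF4 was bound.

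The wider pathway was read from 2 lists. Of 15 genes for the eIF2 kinases, eIF2 and its exchange factor and the eIF2 phosphatase, BRG1 lay at a start site of 15, ACTL6A of 9 and NRF2 of 10, with 7 in 3-way overlap, where the shares of all genes were 63.5%, 38.5%, 28.1% and 20.4%. Of 28 other ATF4 targets and partners, BRG1 lay at 24, ACTL6A at 14 and NRF2 at 15, with 9 in 3-way overlap, to be read against the same shares. None of the antibodies had a start-site peak at NUPR1, SHMT2, STC2 or FGF21, 4 of these 28 genes against 34.4% of all genes, and NUPR1 was the 1 gene of both lists with an IgG peak at a start site. SLC7A11, the cystine-carrying chain of the importer, had small ACTL6A and BRG1 peaks, with 7 fragments against 0.539 expected and 9 against 0.70, and no NRF2 peak at its start sites. SLC3A2, the heavy chain of that importer, had all 3 in overlap at a start site. Its highest start-site peaks had 62 BRG1 fragments at 617 bp, 27 NRF2 fragments at -469 and 20 ACTL6A fragments at -24811, the last at another of its starts, so these counts are not those of the overlap.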

How the data were processed

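Peak lists of CUT&Tag in SNU638 cells were used, 1 library each for ACTL6A, BRG1 and NRF2 and 2 for IgG. Per the labels, libraries were sequenced in pairs and processed with fastp 0.23.0, FastQC, BWA, MACS2, deepTools and HOMER 4.11 on hg38. The paper's reporting summary gives a q-value below 0.05 for peak calling, and the control given to the caller is not given in the sources used here. Each deposited peak has a score, a fold enrichment (a ratio of signal at the summit to that expected), a -log10 p-value, a -log10 q-value and a summit offset, all values of the caller and not compared between lists.

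Peaks were set against GENCODE release 44 on GRCh38, and 0 peaks passed a chromosome end. Ranks follow the -log10 q within a list. The whole number of fragments at a summit, with 1 added by the caller to observed and expected, was solved from fold and p-value within 0.001 on the -log10 scale, and all 49 peaks gave a solution. On simulated data 99.5% of 2000 peaks gave the exact number and all of 1000 planted motifs were found. The simulated peaks were made with the formula being solved and the motifs with the letters searched for. These figures therefore check the calculation only, not whether the caller used that formula. If the caller counted single read ends, the numbers are reads. Shares have Wilson intervals, which cover counting error only.

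The genes, lists and settings were chosen with earlier results of these data known. All 10 genes are named. From the pathway lists those without any start-site peak and the chains of the cystine importer are named, and neighbours with a start within 1 kb of a peak. ATF4 expression was not analysed here. No test between lists was possible with 1 library per antibody. The tools were pysam 0.24.0, pandas 2.3.3, SciPy 1.17.1, NumPy 2.4.6 and matplotlib 3.10.9 under Python 3.11.15.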

Additional observations from a re-analysis of the deposited data

How the results depend on the processing

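Of 64 alternative values for 11 counts, 47 stayed within 1.5 times the count given above and 17 did not. With a -log10 q of at least 5, the genes with NRF2 at a start site fell to 2, those in 3-way overlap to 2, and the peaks over the genes and flanks to 6 for ACTL6A and 3 for NRF2. With the highest 5000 peaks of each list, start-site genes were 5 for BRG1 and 3 for NRF2, ACTL6A and BRG1 overlapped at 3, the 3-way overlap held at 2 (ASNS and DDIT4), and peaks over the genes were 5 for ACTL6A, 6 for BRG1 and 4 for NRF2. Where both peaks had to be covered to at least 50%, 1 gene was left in 3-way overlap. With 50 kb to each side there were 33 ACTL6A and 70 BRG1 peaks. A CARE match of TGATGCAA near the highest BRG1 summit was found at 0 genes, a match anywhere in that peak at 6, and, in an alternative added after the data had been seen, a match in any start-site BRG1 peak at 7. The causes were not tested beyond what each setting leaves out by construction. Leaving out IgG 1 or IgG 2 gave counts from 0 to 0. No paired analysis was possible because the 3 antibodies had a single library each. Small ACTL6A counts at summits limit what its list can show as absent.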
